A study of Mus musculus with 2 samples.

Results

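The chromatin loops of the Bmp2 locus were described in the mouse uterus at 2 stages of the estrous cycle. A loop belonged to the locus when at least 1 of its anchors lay between 132800000 and 135000000 on chromosome 2 (mm10), a window of 2200 kb around Bmp2. By this rule 46 of the 26240 loops called in diestrus and 41 of the 24131 called in estrus were members, or 87 of 50371 in both lists. The anchors are bins of 10 kb, and a bin at the upper border that starts at 135 Mb counted as outside. Whole uteri came from intact, unexposed CD-1 mice aged 2 months, an outbred stock, with no genetic change or treatment in either group. The diestrus group (n = 1 library) represents the progesterone-dominated stage of the cycle, and the estrus group (n = 1 library) the stage after estrogen has peaked. Contacts were measured by Hi-C, which joins neighbouring DNA segments of the folded genome by ligation and reads each joined pair. The labels do not say how many animals gave each library, and whole uterus mixes epithelium, stroma, muscle, vessels and immune cells, whose shares cannot be told apart from a change within a cell type.

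The contacts of the locus loops summed to 5741 (5593 to 5891) for diestrus and 4838 (4703 to 4976) for estrus, where ranges in parentheses are 95% intervals. These sums cover different sets of called loops, 46 and 41, and the whole lists held 4533525 and 4153485 contacts. Intervals of contacts and of strength cover counting error only, and none covers the spread between animals. With 1 library per stage there was nothing to test between the stages, and differences are given as sizes alone. Only called loops are listed, so a loop absent from a list may still have contacts below the calling thresholds.

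BMP2 is a secreted ligand of the TGF-beta superfamily. It binds receptor pairs of type I and type II serine/threonine kinases, which phosphorylate SMAD proteins that then enter the nucleus and act on target genes. In the uterus Bmp2 is known for its induction in stromal cells around the implanting embryo and for its need in decidualization, the change of stroma into the tissue that supports early pregnancy. In other tissues regulatory elements of Bmp2 are known to lie far from the gene, and chromatin loops are a way in which distant segments can come close to a promoter.

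Bmp2 lay alone in a long span without other protein-coding genes. The gene runs from 133552159 to 133562896 (10738 bases), and the nearest protein-coding neighbours were Fermt1, an adaptor of integrins in epithelium, 606 kb below and Hao1, an oxidase gene, 934 kb above. "Below" and "above" here mean lower and higher coordinates. The window held 10 protein-coding genes and 15 other annotated genes. The lower-coordinate end of Bmp2 lies in the bin from 133550001 to 133560000, and every loop counted for the gene in either library used that bin. The bin with its other end, 133560001 to 133570000, was an anchor of 0 loops in both libraries. Anchors are named below by their lower edge in Mb, so the Bmp2 bin is 133.55.

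The locus loops fell into 3 blocks that loops hardly crossed. The middle block spanned 1540 kb, from 132.95 to 134.49 Mb, and Bmp2 was the only protein-coding gene with an end in any of its anchors. It held 28 of the 46 diestrus loops and 26 of the 41 estrus loops. A lower block ended at the anchor 132.9, which holds an end of Fermt1, with 5 loops in each library. An upper block began at 134.54 within Hao1 and reached to 135.32 within Plcb1, a phospholipase C gene, with 12 and 9 loops. Loops with both anchors outside the window were not members, so the lower and upper blocks are cut at their outer sides. For example, the anchor 132.31 had 3 loops in each library, of which 1 was a member. Of the members, 1 diestrus loop crossed a border, from 133.78 to 135.33 with 24 contacts (15.4 to 35.7), and 1 estrus loop, from 132.85 to 132.95 with 56 contacts (42.3 to 72.7). A further 4 loops in each list spanned the whole window from anchors outside it. By contrast, 13 diestrus and 15 estrus loops of the locus crossed the gap between 133.43 and the Bmp2 site. The borders were placed after the loops were seen, at the gaps crossed by fewest of them, so they are a description.

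**Figure D1:**
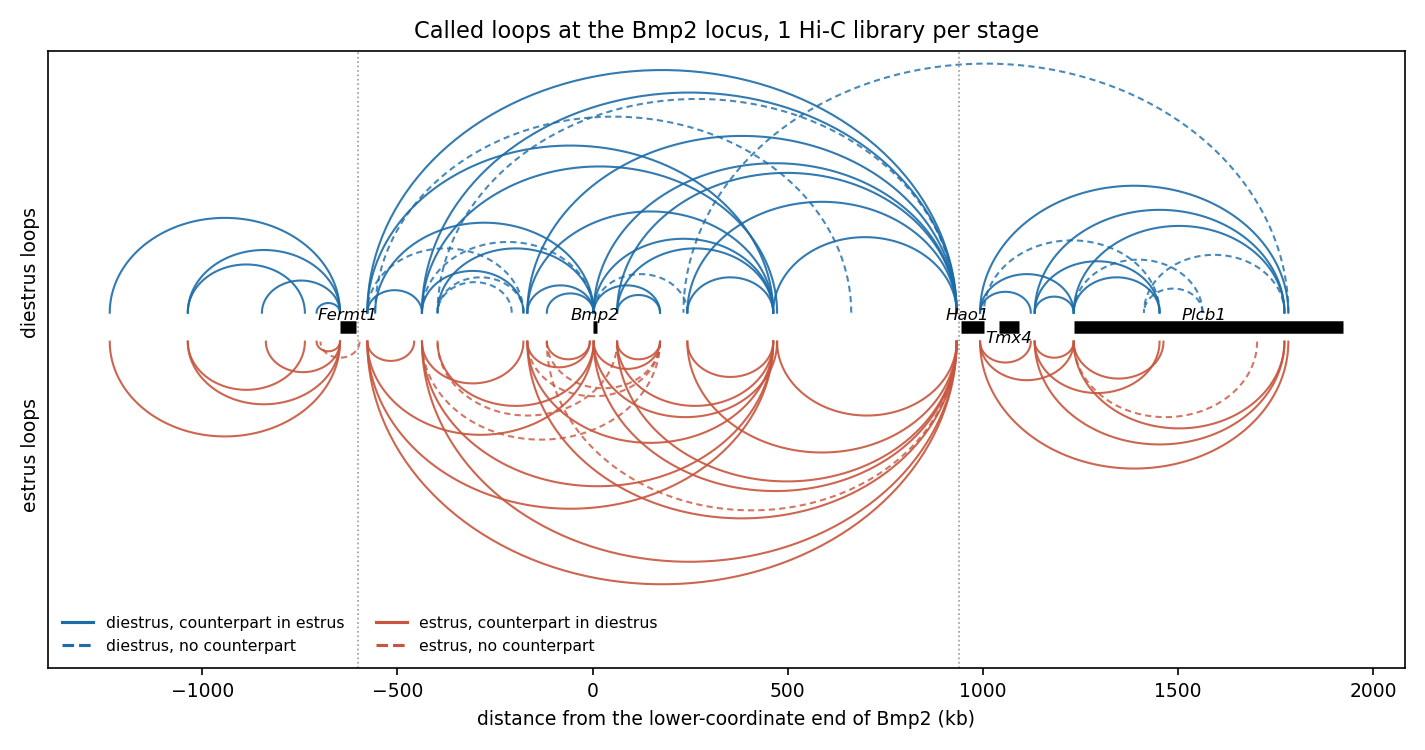
Loops of the Bmp2 locus as arcs between anchor centres, with diestrus above and estrus below the line; the x axis is the distance in kb from the lower-coordinate end of Bmp2, bars are genes, dashed arcs had no counterpart within 10 kb in the other library, and dotted lines mark the middle block. The blocks with 28 and 26, 5 and 5, and 12 and 9 loops stand apart in both stages.

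Sequences at 2 anchors that the results below turn on are shown to place them in the genome. They are the 250 bases before a transcript start, 5' to 3' on the gene's strand, from RefSeq (GRCm38.p6, the assembly of mm10). A430048G15Rik is a long non-coding RNA gene whose start lies in the anchor 133.43. This anchor loops to the Bmp2 bin in diestrus and to the bin next to it in estrus. The stretch shown is chr2:133431847-133432096 on the plus strand. The start of Plcb1 lies in the anchor 134.78 of the strongest locus loop of diestrus, and its stretch is chr2:134785914-134786163 on the plus strand. Capitals mark matches to the motifs searched.
A430048G15Rik: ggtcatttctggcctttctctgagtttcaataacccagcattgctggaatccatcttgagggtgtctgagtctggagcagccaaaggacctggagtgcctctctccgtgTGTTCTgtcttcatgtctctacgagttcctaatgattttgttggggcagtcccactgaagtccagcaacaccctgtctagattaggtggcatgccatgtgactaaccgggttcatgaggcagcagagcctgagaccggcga
Plcb1: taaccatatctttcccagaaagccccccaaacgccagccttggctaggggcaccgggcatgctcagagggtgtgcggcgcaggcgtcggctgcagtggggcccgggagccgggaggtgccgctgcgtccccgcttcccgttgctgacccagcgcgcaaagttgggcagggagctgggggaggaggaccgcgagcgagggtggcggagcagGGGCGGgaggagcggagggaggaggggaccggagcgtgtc
Both strands were searched for the estrogen response element GGTCANNNTGACC and its half-site AGGTCA, and for the progesterone-type element GNACANNNTGTNC and its half-site TGTTCT. The letters AGGGGGC, found in many sites of the insulator protein CTCF, and the GC box GGGCGG were searched as well. Each half-site can lie within its full element. The stretch of A430048G15Rik, 52% G and C, held 1 TGTTCT, which 16.1% of 32851 such promoter stretches hold. That of Plcb1, 71.2% G and C, held 1 GC box, found in 32.7% of all. The other motifs had no match in these windows; the full estrogen and progesterone-type elements occur in 0.064% and 0.39% of all stretches, AGGTCA in 14.0% and AGGGGGC in 9.43%. A match of letters is not a bound site.

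The Bmp2 bin anchored 9 diestrus loops and 5 estrus loops. Of the 21631 protein-coding genes, 9049 had a loop in either library, with a median of 1. At least 9 loops were found at 51 genes in diestrus, and at least 5 at 420 genes in estrus. A difference of at least 4 loops towards diestrus occurred in 0.199% of genes with a loop, and in 6 of the 56 genes with 9 or more loops in either library, or 10.7%. The size of the Bmp2 difference rested on bins and thresholds. Another 2 estrus loops ended at 133.54, the bin next to that of Bmp2, and a margin of 5 kb around the anchors gave 9 and 7. With q-values 10 times stricter they were 7 and 5, and with the diestrus list shortened by strength to the length of the estrus list also 7 and 5. With gene ends within 5 kb and the shortened list together, a setting chosen after the data were seen, they were 7 and 7.

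Towards lower coordinates the longest Bmp2 loop went 560 kb, to 132.99, in diestrus, where it held 74 contacts (58.1 to 92.9) at 1.91 times the number expected from the surrounding pixels. This ratio to the donut-shaped neighbourhood is called strength below. In estrus its counterpart ended at 132.97 and held 67 contacts (51.9 to 85.1) at 2.60. The diestrus loop had the largest q-value of the locus, 0.0336. From 133.15, 400 kb below, there were 118 diestrus contacts (97.7 to 141) and 86 estrus contacts (68.8 to 106), at strengths of 2.59 and 2.43. The ranges of contacts overlapped.

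Close to the gene, the diestrus loop from 133.38 held 158 contacts (134 to 185), a strength of 2.48. Its estrus counterpart joined 133.38 to 133.54 with 135 contacts at 2.31. The loop from the A430048G15Rik anchor at 133.43, 120 kb below Bmp2, had 179 diestrus contacts (154 to 207) and, ending at 133.54, 243 estrus contacts. Its strength was 2.19 in diestrus and 3.24 in estrus. This was the largest change towards estrus among the paired loops of the locus, a log2 ratio of 0.55 after centring, or 1.46-fold. The pair compares pixels that differ by 1 bin, and the part of this shift in the ratio was not tested.

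Towards higher coordinates, 3 loops of Bmp2 were called in both libraries. The loop of 170 kb to 133.72 had 165 diestrus contacts (141 to 192) and 170 estrus contacts (145 to 198), with strengths of 2.77 and 3.05. The loop to the site at 134.01, 460 kb above, held 131 contacts (110 to 155) and 123 (102 to 147), with strengths of 4.13 and 4.78. The 930 kb loop to 134.48, the upper edge of the block, held 135 contacts (113 to 160) and 132 (110 to 157). It was the strongest Bmp2 loop in both libraries, with strengths of 4.78 and 6.15. In each of these 3 loops the contacts differed by less than counting error, and the strengths were higher in estrus by 1.09-fold, 1.15-fold and 1.27-fold (0.874 to 1.36, 0.888 to 1.48 and 0.994 to 1.63). At either stage the loops to 134.01 and 134.48 were stronger than every listed loop from below Bmp2.

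Of the 9 diestrus loops of Bmp2, 7 had a counterpart in estrus, and all 5 estrus loops had one in diestrus. The 2 without a counterpart were unlike each other. The loop of 440 kb from 133.11 had 96 contacts (77.8 to 117) and a strength of 3.28, with a largest q-value of 1.24e-11, and it was stronger than 5 of the paired Bmp2 loops of diestrus. The loop of 240 kb to 133.79 held 77 contacts (60.8 to 96.2) at 2.11, with a largest q-value of 0.0106. The latter and the 560 kb loop were those lost with stricter q-values or with the shortened list.

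**Figure D2:**
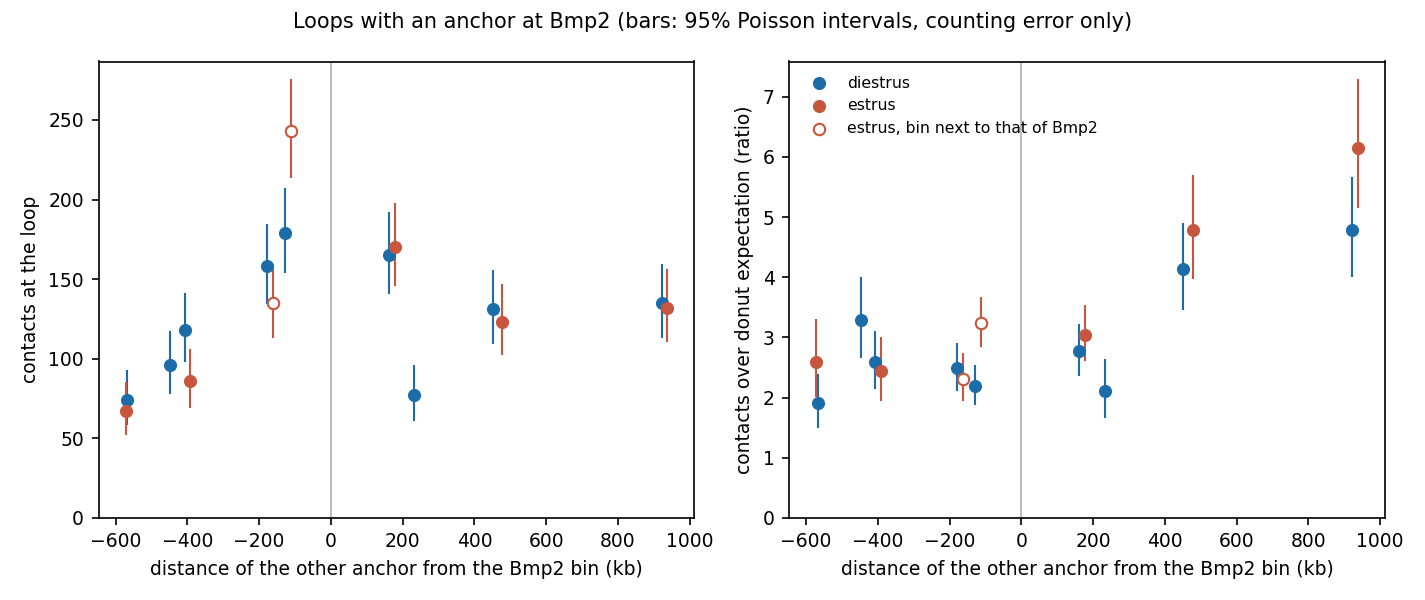
Contacts (left) and strength, contacts over the donut expectation (right), of loops at Bmp2 against the distance in kb of the other anchor; bars are 95% Poisson intervals, points of the stages are set apart by 16 kb for display, and open points are estrus loops at the bin next to that of Bmp2. Strength was highest at the anchor 930 kb above in both stages, with 4.78 and 6.15.

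Over the whole locus, 34 of 46 diestrus loops, or 73.9% (58.9% to 85.7%), had a counterpart in estrus, and 34 of 41 estrus loops, or 82.9% (67.9% to 92.8%), had one in diestrus. These intervals treat loops as independent draws. Without a counterpart were 12 diestrus loops and 7 estrus loops, against 25.6% of all diestrus loops and 19.2% of all estrus loops. The shares at the locus were near this background. Loops without a counterpart had a median strength of 2.98 in diestrus and 2.48 in estrus, against 3.48 and 3.65 for the others.

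Within the middle block 5 estrus loops had no counterpart. Of these, 3 joined an anchor below Bmp2 to 133.72, the anchor 170 kb above the gene, and so passed over it. They started at 133.11, 133.38 and 133.43, with 47, 61 and 58 contacts at strengths of 2.97, 2.45 and 2.56. The site 133.72 thereby went from 2 diestrus loops to 5 estrus loops. A gain of at least 3 loops occurred at 0.799% of 21658 anchor sites, and at 3.23% of the 3339 sites with at least 5 loops in either library. The other 2 estrus loops ran from 133.15 to 133.61, with 61 contacts at 2.48, and from 133.43 to 134.48, with 44 contacts at 4.11. The site 133.43 anchored 1 diestrus loop and 3 estrus loops, and the share of all sites with such a gain was not counted.

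In diestrus, 5 loops of the block besides those of Bmp2 had no counterpart, and 3 of them started at 133.15. They ended at 133.34, 133.37 and 134.48, with 124, 100 and 56 contacts at strengths of 2.02, 2.10 and 3.38. The site 133.15 anchored 4 diestrus loops and 2 estrus loops. The remaining loops went from 132.97 to 133.37, with 67 contacts at 2.73, and from 132.99 to 134.21, with 37 contacts at 3.82. The Bmp2 site, made of the bins 133.54 and 133.55, had 9 and 7 loops. A loss of at least 2 loops occurred at 9.77% of all sites, and at 26.9% of those with at least 5 loops.

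The upper edge of the block, 134.48, gathered 8 loops at either stage, with 746 contacts in diestrus and 747 in estrus. All came from anchors below it. In both lists these anchors included 132.97, 133.11, 133.38, 133.55, 133.61 and 133.79, and the site at 134.01. The eighth was 133.15 in diestrus and 133.43 in estrus. The site 134.01 had 7 loops at either stage, 6 of them from below, so that Bmp2, 133.11, 133.38, 133.61, 133.79 and 132.97 each reached both 134.01 and 134.48 at both stages.

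**Figure D3:**
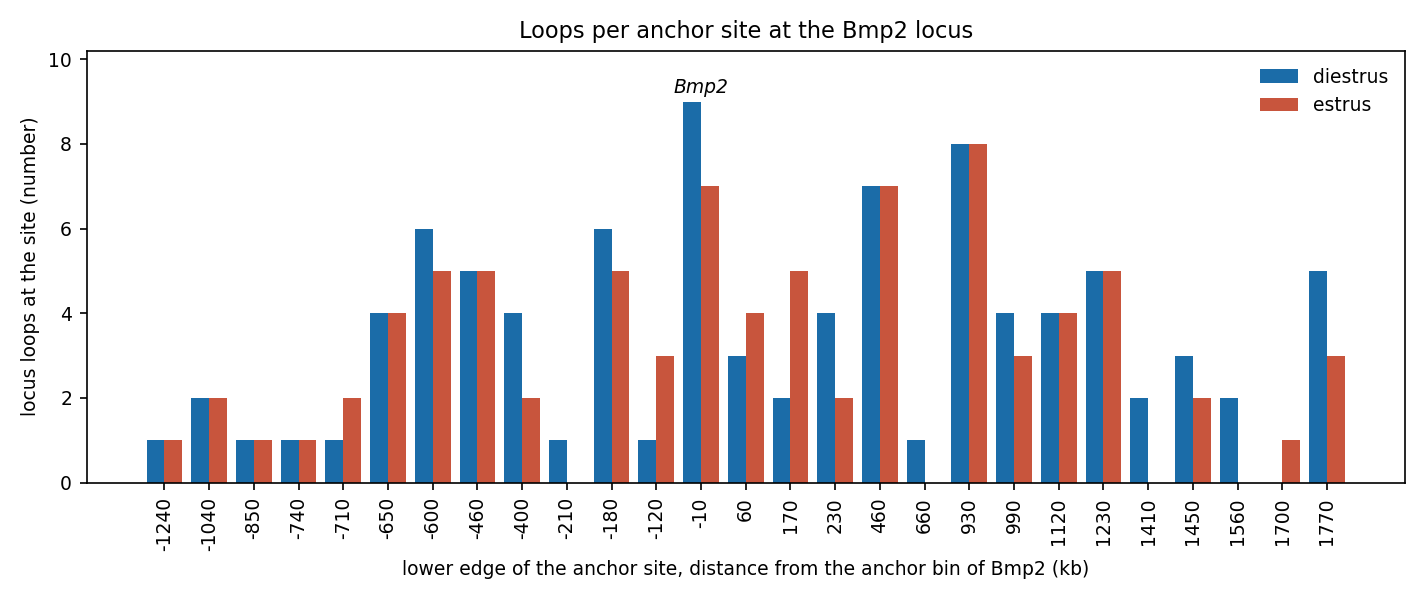
Number of locus loops at each of 27 anchor sites in diestrus and estrus (1 library each); sites are bins merged where the gap was at most 10 kb, and the x axis gives the distance of a site's lower edge from the Bmp2 bin in kb. The Bmp2 site had 9 and 7 loops, the site at 170 kb 2 and 5, and the site at 930 kb 8 and 8.

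For strength, 34 loops of the locus were paired between the libraries, 25 of them at the same position and 9 moved by at least 1 bin. Of all 19399 pairs, 16240 were at the same position, a higher share than at the locus. Log2 ratios of estrus strength to diestrus strength were centred on the median over all 19399 pairs of the whole lists. At the locus their median was -0.06 (-0.15 to 0.15), with a range from -0.48 to 0.55 and an SD across pairs of 0.25, against 0.26 over all pairs. Beyond 1.5-fold, 0 of the 34 pairs were stronger at estrus and 0 at diestrus, against 1.64% and 1.56% of all pairs. The interval from counting error left out a ratio of 1 in 2 of the 34 pairs. The share of all pairs was not counted, and at 95% some pairs are left out by counting error alone. Both compare pixels at different positions. They were the loop from the A430048G15Rik anchor, stronger in estrus, and the 140 kb loop from 132.97 to 133.11. In estrus the former ended at 133.54, next to the Bmp2 bin. The latter had an estrus-over-diestrus ratio of 0.715 (0.537 to 0.951). It held 101 contacts in each library, at strengths of 2.89 and 2.09, and its estrus counterpart ended at 133.09.

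The signs of these small differences were counted by block. In the middle block 14 of 21 pairs were stronger in estrus, with a median of 0.15 whose interval spans 0 (-0.11 to 0.21). In the upper block 8 of 8 were stronger in diestrus after centring, with a median of -0.17 (-0.34 to -0.01), an interval equal to their range. Without centring 7 of 8 were, since the loop from 134.68 to 135.32 had a slightly higher strength in estrus, 10.07 against 10.01. In the lower block 4 of 5 were stronger in diestrus, with a median of -0.15. With the largest of the 4 expected values in place of the donut, the numbers were 15 of 21, 6 of 8 and 2 of 5. The last of these turned, to a median of 0.01, so no direction is given for the lower block. Neighbouring loops share anchors and background, so the pairs of a block are not independent, and over all pairs 9699 lay on each side of 0. Among the 7 pairs with an anchor at Bmp2, 5 were stronger in estrus, with a median of 0.20 (-0.12 to 0.55). Among the 7 ending at 134.48, 6 were, with a median of 0.19 (-0.13 to 0.35). Both of these intervals span 0.

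Contacts and background of the pairs were then set side by side. At the 7 Bmp2 pairs the expected contacts were lower in estrus in all 7, with a median log2 ratio of -0.30. Over all pairs the median was -0.08, and 70.1% were lower in estrus. Only 3 of the Bmp2 pairs were at the same position, with -0.37, -0.10 and -0.40. The others compare the surroundings of different pixels, and the part of this shift was not tested. The observed contacts at the 7 Bmp2 pairs had a median log2 ratio of -0.09, close to -0.06 over all pairs. Of all 19399 pairs, 11515 had fewer observed contacts in estrus, 7509 had more and 375 had equal numbers. The 930 kb loop to 134.48 had 28.2 expected contacts in diestrus and 21.5 in estrus, with 135 and 132 observed. In the upper block the observed contacts were lower in estrus in 7 of 8 pairs and equal in 1, with a median of -0.24, and the expected contacts had a median of -0.17. In the lower block the observed contacts were lower in estrus in 5 of 5 pairs, with a median of -0.38, and the expected contacts had a median of -0.25. In the middle block 8 pairs had more contacts in estrus, 10 fewer and 3 equal numbers, with a median of 0 and an expected median of -0.12. Sequencing depth beyond the called loops was not analysed here, and its part in these ratios was not tested.

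**Figure D4:**
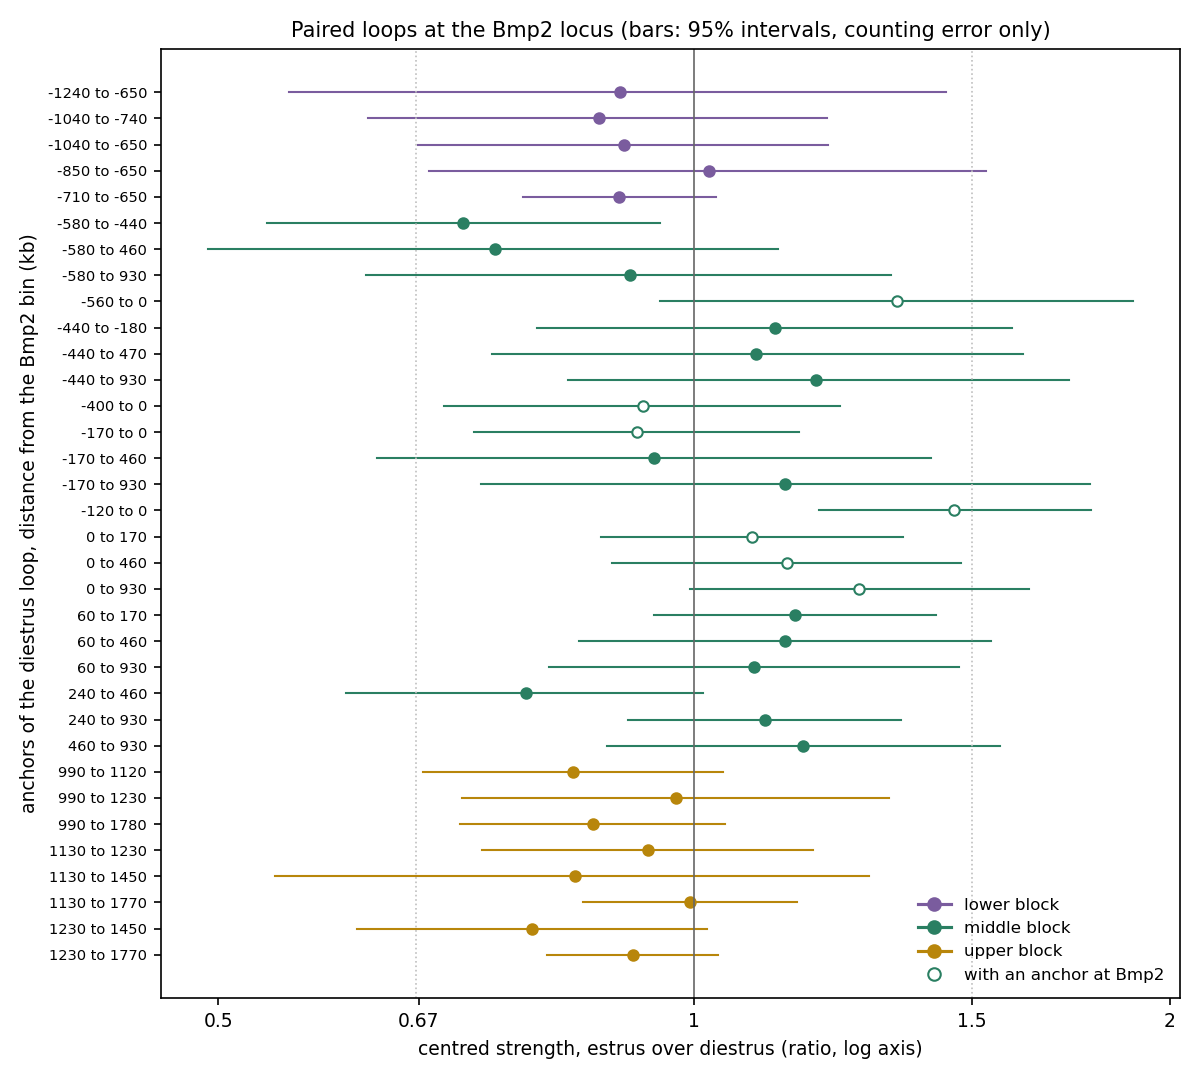
Centred strength, estrus over diestrus, of the 34 paired loops on a log axis, with 95% intervals from counting error; the y axis names the anchors of the diestrus loop by distance in kb from the Bmp2 bin, colours give the block, open points have an anchor at Bmp2, and dotted lines mark 1.5-fold. All 8 pairs of the upper block lie below 1 on this scale, and 14 of 21 in the middle block lie above it.

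**Figure D5:**
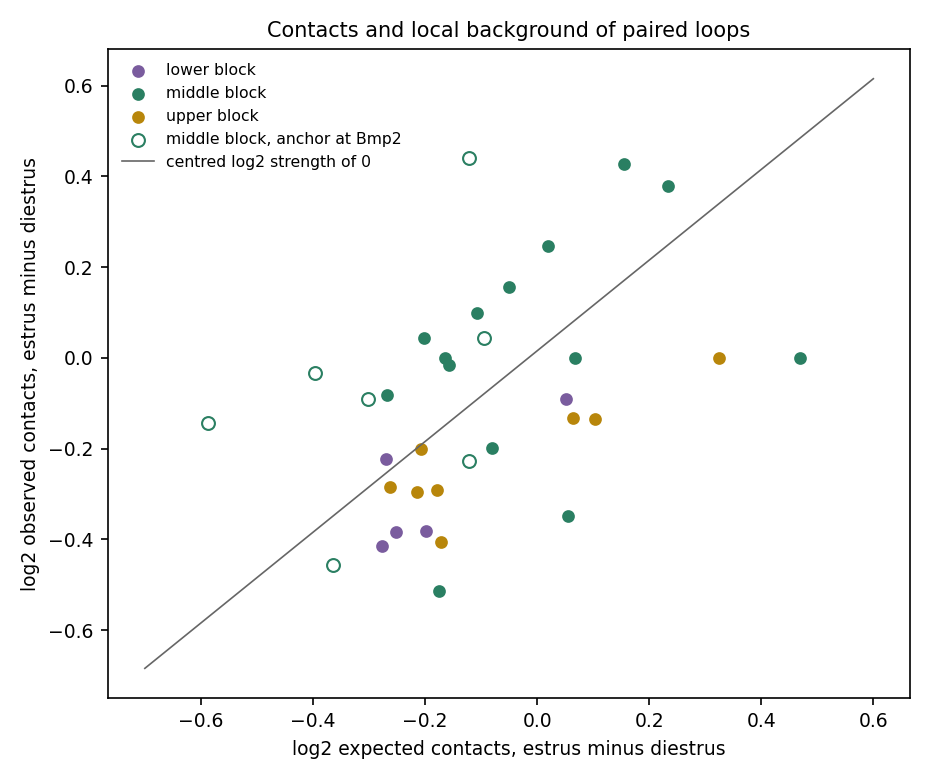
Log2 ratio of observed contacts against log2 ratio of donut-expected contacts, estrus minus diestrus, for the 34 paired loops by block; on the line the centred strength did not change. All 7 pairs with an anchor at Bmp2 (open) lie left of 0 on the x axis, with a median of -0.30, and 3 of them were at the same position.

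The 3 strongest diestrus loops of the locus had an anchor within Plcb1, a signalling gene downstream of G-protein-coupled receptors. The loop of 540 kb from its promoter anchor 134.78 to 135.32 in its body held 568 diestrus and 464 estrus contacts, with strengths of 10.6 and 9.79. The loop of 640 kb from 134.68 to 135.32 held 355 and 309, at 10.01 and 10.07, and was the strongest of the locus in estrus. From 134.54 to 135.33 the loop of 790 kb held 227 and 207 contacts, at 9.52 and 8.30. Plcb1 had 5 loops with an end in an anchor in each library. The 5 loops of the upper part that were listed at a single stage reached other bins of the gene. The diestrus loops joined 134.78 to 135.11, 134.96 to 135.11, 134.96 to 135.32 and 134.55 to 135, with 131, 126, 148 and 32 contacts. The estrus loop joined 134.78 to 135.25 with 112 contacts. Counting any base of Plcb1 gave 18 diestrus loops and 14 estrus loops.

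Within the middle block the strongest loop joined 133.79 to 134.48 over 690 kb, with no protein-coding gene end in either anchor. It held 204 contacts in each library, with strengths of 8.79 and 9.86. The lower block was led by the loop of 60 kb from 132.84, with ends of Mcm8 and Crls1, to 132.9 at Fermt1, with 413 contacts in diestrus and 388 in estrus at 4.0 and 3.63. Mcm8 encodes a helicase of DNA repair and Crls1 the synthase of cardiolipin. The loop of 390 kb from 132.51 to Fermt1 was the strongest of this block, at 6.43 and 5.87, with 107 and 82 contacts. Fermt1 had 4 loops in each library.

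The median length of the locus loops was 400 kb in diestrus (240 to 560) and 400 kb in estrus (260 to 590), against 240 kb and 230 kb over all loops. The diestrus interval includes the value over all loops, at its lower limit. The range was from 60 to 1550 kb in diestrus and from 60 to 1510 kb in estrus. Their median strength was 3.25 (2.88 to 3.87) and 3.24 (2.76 to 3.83), against 3.28 and 3.43 over all loops, which lie within these intervals. Loops joining protein-coding gene ends at both anchors were 2 in each library, 4.35% and 4.88%, against 9.25% and 9.22% of all loops. Loops without any made up 56.5% and 63.4% at the locus, against 56.2% and 55.3%.

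Genes with loop numbers most like those of Bmp2, by the summed difference over the 2 libraries, were Top2b and Kctd12, both with 9 and 5. They were followed by Zfp521, Pcdh7 and Bnc2 with 8 and 5, chosen by their contacts among 14 genes at a distance of at most 1 loop. Bmp2 held 1133 contacts in diestrus and 578 in estrus at these loops, or 1133 and 956 with the 2 estrus loops at the next bin. Top2b held 1072 and 657 by gene ends in the anchor. With 2 libraries such likeness is a description of the numbers alone.

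Other genes of the BMP pathway were counted from a list of 36, all matched, which includes Bmp2. Of the other 35, 25 had a loop, 8 with more in diestrus, 7 with more in estrus and 10 with equal numbers. The share with more in diestrus, 32%, was near the 33.5% of all protein-coding genes with a loop, and the median difference was 0 in both. Without Bmp2 the list summed to 69 diestrus loops and 63 estrus loops.

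Of 7 ligand genes, Bmp2 alone was higher in diestrus, 2 were higher in estrus and 4 were equal. The Bmp2 difference of 4 loops was 2 with gene ends within 5 kb, and 0 with the shortened diestrus list as well. The other ligand genes were not counted under these settings. Bmp4, which like Bmp2 patterns mesenchyme, had 7 loops in each library, Gdf6 had 4 in each, and Bmp6 had 3 and 4. Among 6 receptor genes, the type II receptor gene Acvr2a had 6 and 3 loops, the type I receptor gene Bmpr1b had 3 and 5, and Bmpr1a, another type I receptor gene, had 1 in each. Of 7 antagonist genes, whose products bind BMP ligands or activin outside the cell, 5 had no loop in either library, while Nog had 6 and 4 and Fst had 3 and 1. Inside the cell, Smad1, a transducer of BMP signals, had 5 in each, and the inhibitor genes Smad6 and Smad7 had 4 and 5, and 4 and 2. Of 10 target and decidual genes, Id2, a BMP-responsive inhibitor of helix-loop-helix factors, had 8 in each, Hoxa10, which is needed for implantation, had 2 and 3, and Ptgs2, a prostaglandin synthase gene, had 2 and 0. Numbers for these genes count loops with a gene end in an anchor, and other assignments were not tried for them.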

How the data were processed

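The labels' protocols name the Arima HiC kit for the libraries, 1 per stage (n = 1 each). Juicer and mm10 are named in the submitters' processing notes; for versions, aligner and caller settings: not given in the sources used here. Each deposited list has the columns of HiCCUPS, the loop caller of Juicer, per the file headers. Observed contacts and merged pixels are raw counts by the authors. The expected contacts of 4 neighbourhoods are a signal on the same scale from the authors' caller, and its q-values are deposited beside them. Anchor positions are other values, in bases, per the file headers, and are printed 1-based.

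Depth is known only at called loops: 4533525 contacts in diestrus and 4153485 in estrus. A counterpart had both anchors within 10 kb, between nearest edges. Pairs were mutually nearest loops, and log2 ratios of strength (observed over donut expectation) were centred on the median of all pairs. Intervals at 95% were exact Poisson for contacts, Clopper-Pearson for shares, exact conditional for ratios with expected contacts taken as exact, and order statistics for medians. Without molecular identifiers, read pairs may repeat a molecule. Genes came from RefSeq (GRCm38.p6), counted by either end in an anchor. Named genes were Bmp2, protein-coding genes with an end in a locus anchor, the 5 genes closest in loop numbers and the pathway list. A430048G15Rik, anchor sites and blocks were chosen after the loops were seen. Members and lists were chosen with earlier results of these data known. Pairing and fold steps were tested on simulated data. Python 3.11.15, pandas 2.3.3 and scipy 1.17.1 were used. Alternatives are given at the end.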

Additional observations from a re-analysis of the deposited data

How the results depend on the processing

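No paired analysis was possible because each stage has 1 library, and no replicate could be left out for the same reason. The numbers of locus loops stayed within 1.5 times of the values given under each alternative tried. With identical positions required, the share with a counterpart was 54.3% of diestrus and 61.0% of estrus loops. Over the whole lists, 16240 pairs had identical positions, among 26240 diestrus and 24131 estrus loops, which are higher shares than at the locus. The difference at Bmp2, 4 loops, was 2 with gene ends within 5 kb or within 10 kb, 2 with stricter q-values and 2 with the shortened diestrus list. It was 1 with gene ends within 5 kb and stricter q-values together, and 0 with gene ends within 5 kb and the shortened list; these combinations and the alternatives for pairs by block were added after the data were seen. It remained 4 with any base of the gene. At identical positions 9 of 14 pairs of the middle block and 2 of 3 at Bmp2 were stronger in estrus, since fewer pairs entered. In the lower block, 2 of 5 pairs were stronger in diestrus with the largest expected value; the cause was not tested. The median log2 ratio of strength over the locus, whose interval spans 0, was 0.02 with the largest or the bottom-left expected value. Over 1.5-fold, 0 pairs were found under each alternative run.

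Precision is limited by contacts per loop, from 24 to 568 in diestrus and from 33 to 464 in estrus.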
